A study of Mus musculus with 2 samples.

Results

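The nuclear receptors and their p160 coactivators were examined in the cervical loop (CL) of the mouse incisor, which holds the stem cells of the dental epithelium and feeds the tooth's continuous growth, with and without Med1. The set holds 50 genes, namely 46 receptor genes, the 3 p160 coactivators Ncoa1, Ncoa2 and Ncoa3, and the corepressor Ncor1. Its members were every probe of the array whose symbol in the platform annotation was one of these 50, which gave 72 probes for 46 genes of the 16593 named genes on the array. No probe carried the symbols Nr1h2, Nr2e3, Nr3c2 or Ncor1, and these 4 genes were not analysed here. The WT sample came from MED1 fl/fl mice and the KO sample from MED1 fl/fl K14Cre littermates, all on a C57BL/6 background and 10 wk of age. Both genotypes thus carried the floxed alleles, and only the KO carried Cre, driven by the keratin 14 promoter and so active in epithelial cells but not in the mesenchyme, vessels and blood cells of the same dissection. An effect of Cre itself and of the Med1 deletion cannot be told apart in this pair. Each sample pooled tissue from 3 mice, and 1 column of Illumina bead array values per genotype was analysed, called an array below. With 1 sample a group there is no test, and every difference is a description of these 2 arrays.

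Nuclear receptors are transcription factors that bind DNA through a zinc finger domain and bind a small lipid-soluble ligand, such as a vitamin, a steroid or a fatty acid, through a separate domain. When ligand is bound, the receptor exchanges corepressors such as NCOR1 for coactivators, among them the p160 proteins, which recruit histone acetyltransferases. MED1 is the Mediator subunit that binds many liganded receptors through short leucine-rich motifs and so connects them to RNA polymerase II, and it was first purified with the vitamin D and thyroid hormone receptors. In teeth, vitamin D signalling is known for its part in enamel and dentin mineralization, and retinoic acid for its part in tooth formation. The comparison therefore asks how the genes of MED1's receptor partners, the enzymes that make and remove their ligands and their known targets differ when Med1 is missing from the epithelium.

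Intensities are given first as deposited and then, on the log2 scale, after background correction and quantile normalization, and the ratio is KO minus WT of the normalized log2 values. A probe counted as detected at a detection p-value under 0.01 on at least 1 array, and the brightest detected probe of a gene stands for it. Of 25697 probes 11742 were detected, representing 8378 named genes, and the median ratio of these genes was 0.00, with 95% of them between -0.62 and 0.61. Measurement error can be judged only from different probes of a gene. The 2 brightest detected probes differed in their ratio by a median of 0.20 in 2007 genes, the 95th percentile was 0.71 and the SD per probe was 0.25, none of which includes variation between animals. Med1 had a ratio of -0.80 by its 1 detected probe of 4. The X-linked Xist was detected on both arrays, with a ratio of -1.52 (-1.10 by another probe). The Y-linked Eif2s3y read 95.3 on WT and 160.6 on KO as deposited and was detected on KO only. In the normalized values it was at least 1.97-fold higher there. The pools thus differed in sex-linked transcripts. The sources used here do not give the sex of the mice, so sex and genotype cannot be told apart.

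The dissected tissue was dental, with Amelx, Ambn, Enam and Krt14 between 12.0 and 14.5 on the normalized log2 scale on both arrays. Markers of some other cell types differed between the arrays, and in bulk tissue fewer cells of a type and less RNA per cell cannot be told apart. All 7 neutrophil markers were higher on the KO array, and their summed normalized intensity was 2694 on WT and 5728 on KO. The 3 detected of 4 smooth muscle markers were lower, with sums of 14458 and 10352, as were the 2 Schwann cell markers on the array, with sums of 1074 and 737. The 4 endothelial markers summed to 1557 and 1041, with 2 above 0 and 2 below, and the 5 detected of 6 skeletal muscle markers, all above 0, to 638 and 825. Sums for the dental epithelial markers were 53616 and 52658. The 5 fibroblast markers summed to 20692 and 21424 and the 3 osteoblast markers to 26305 and 26919. The 1 macrophage marker on the array, Adgre1, had a ratio of 0.01. None of the 4 adipocyte markers and none of the 2 odontoblast markers was detected. Of 4 hair keratin markers on the array Krt27 was detected, and it was 1.65-fold higher on the KO array, at 7.51 on WT and 8.23 on KO. The part of these shifts in the receptor results was not tested.

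Of the 46 receptor and coactivator genes on the array 21 were detected, 45.7%, against 50.5% of all named genes on the array. A total of 18 were detected on both arrays and 3, Rara, Rxrg and Ncoa2, on the WT array only. For these 3 the ratio is given with a bound, the WT value against the lowest value of any detected probe on the KO array, which was 5.15 on the log2 scale (5.26 on the WT array). Such a bound holds for these normalized values only and includes no measurement error. All 3 bounds were smaller in size than the SD per probe. In the authors' own normalized values, which keep the background, the measured ratios of Rara, Rxrg and Ncoa2 were -0.12, -0.08 and -0.06. Most detected receptors were dim. When the detected genes were divided by brightness into 3 equal parts, 12 members fell in the dimmest, 4 in the middle and 5 in the brightest, where the central 95% of the ratios of all genes ran from -0.77 to 0.75, from -0.57 to 0.54 and from -0.42 to 0.39. The plot of levels shows how close to the detection limit the dimmest members were.

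**Figure D1:**
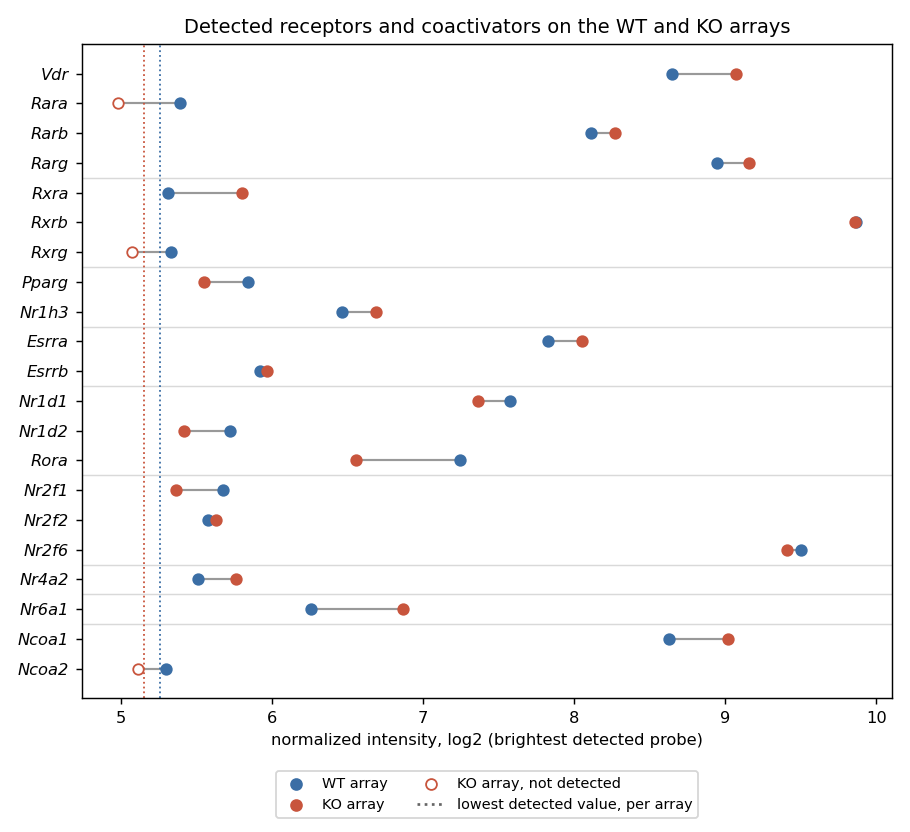
Normalized intensity on the log2 scale (x axis) of the brightest detected probe of each of the 21 detected genes on the WT array (blue) and the KO array (red), 1 value per array, with open symbols where the gene was not detected and dotted lines at the lowest detected value of each array. Levels of different probes cannot be ranked, but 12 of the genes lie in the dimmest part of the array, and Rara, Rxrg and Ncoa2 lie below the KO detection limit.

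The 21 detected members had a median ratio of 0.04, with 11 above 0 and 10 below, against a median of 0.00 and 50.1% above 0 over all detected genes. The orphan receptor gene Nr6a1 was 1.52-fold higher on the KO array and the clock receptor gene Rora was 1.61-fold lower. These were the 2 members whose ratio reached 1.5-fold, 1 in each direction, while 1.78% of all 8378 genes were 1.5-fold or more higher and 2.24% were 1.5-fold or more lower. One gene in each direction is the smallest count above 0 that a set of 21 can give, so these shares were not read as a difference from the background. With the arrays scaled to a common median, which moved the median ratio of all genes to -0.13, the split over all genes changed from 149 higher and 188 lower to 74 and 359. The ratio of 10 members was smaller in size than the SD per probe, which was 0.245 before rounding.

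**Figure D2:**
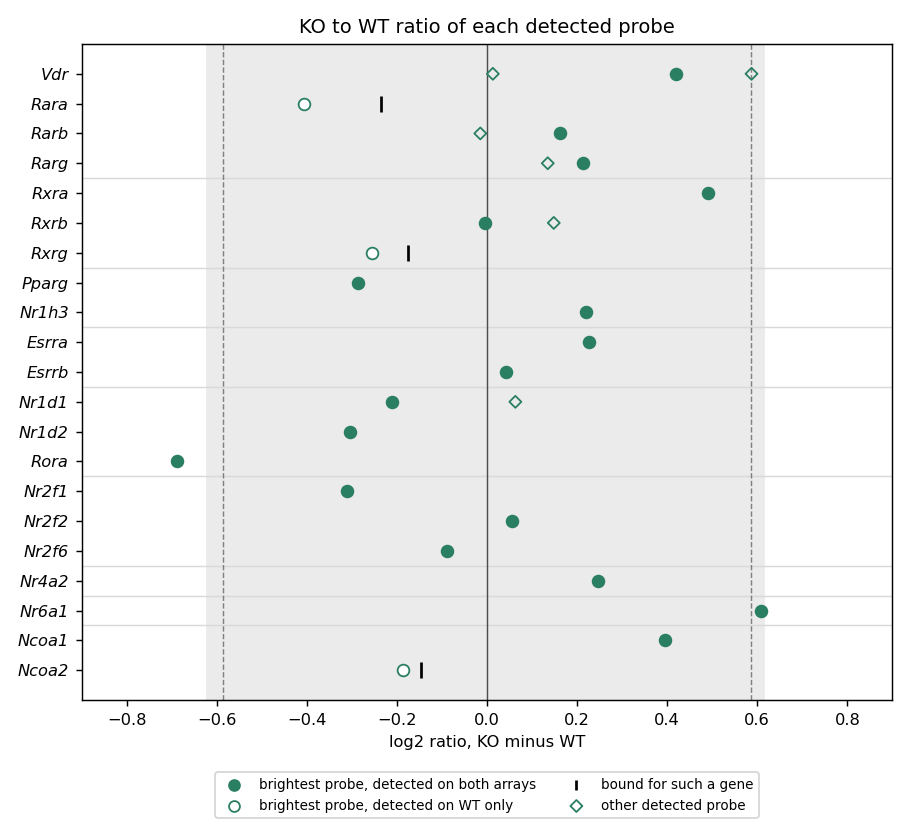
Log2 ratio, KO minus WT (x axis), of every detected probe of the 21 genes, with filled circles for the brightest probe, open circles for a gene detected on WT only, black ticks for its bound and diamonds for other detected probes. The grey band holds the central 95% of all detected genes (-0.62 to 0.61) and dashed lines mark 1.5-fold, which the brightest probes of Nr6a1 and Rora and the second probe of Vdr passed.

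Among the receptors known to bind MED1 most directly, the vitamin D receptor gene Vdr was higher on the KO array. Its brightest probe read 507.7 on WT and 594.3 on KO as deposited, and 8.65 and 9.07 after normalization, a ratio of 0.42 or 1.34-fold. The other 2 probes were detected on both arrays and did not give the same size. One read 267.8 and 339.3 with a ratio of 0.59, past 1.5-fold, and the dimmest read 161.9 and 160.5 with a ratio of 0.01. The probes thus ranged from no difference to 1.5-fold, and which of them reports the receptor transcript best is not known here. Among all genes 561 had a ratio as high as that of the brightest Vdr probe or higher. That probe was in the brightest part of the array, and its ratio of 0.42 lay just above the central range of genes there, whose upper end was 0.39. The dimmest Vdr probe, at 0.01, was inside the central range of every part.

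Vitamin D target genes did not share a direction. Of 8 on the array 4 were detected, none reached 1.5-fold and their median was 0.16. The Wnt coreceptor gene Lrp5 had a ratio of 0.30, the epithelial calcium channel gene Trpv6 0.28 and the osteocalcin gene Bglap 0.04 (-0.01 and 0.39 by other probes), while Klk4, the protease of maturing enamel, lay at -0.32. Trpv6 read 124.4 and 134.6 as deposited and Klk4 132.6 and 124.9, where the lowest detected probe of the array read 123.5 and 123.1. Their ratios were 0.09 and -0.11 in the authors' normalized values. Bglap, which is also an osteoblast marker, read 23900.0 and 24085.4. These values limit what the list can show. Cyp24a1, which encodes the enzyme that degrades active vitamin D and is its most sensitive target in many tissues, was not detected. Genes of vitamin D, thyroid and steroid hormone metabolism had a median of -0.00 over 7 detected of 14 on the array, by the brightest probe of each. Hsd17b12, an enzyme of fatty acid elongation and estrogen synthesis, was the widest at -0.53, followed by Hsd17b11 at -0.14, the sterol hydroxylase gene Cyp27a1 at -0.07 and Hsd17b4 at 0.05. Other probes of these genes differed, at 0.37 for Hsd17b11 and at -0.64 (212.6 and 163.7 as deposited) and 0.17 for Cyp27a1.

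Both thyroid hormone receptor genes, Thra and Thrb, were on the array and not detected, with deposited intensities of 111.0 and 111.9 for Thra and 91.0 and 101.8 for Thrb on WT and KO. Known thyroid hormone targets were detected all the same, 5 of 8, with a median of 0.11 and none past 1.5-fold. Among them the calcium pump gene Atp2a1 had a ratio of 0.34, the corepressor gene Hr 0.24, the malic enzyme gene Me1 0.11 and the calcium pump gene Atp2a2 0.03, with a second Atp2a2 probe at -0.19. Atp2a1 is expressed in fast skeletal muscle, whose 5 detected markers had a median ratio of 0.30, and their part in the Atp2a1 value was not tested.

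The 3 retinoic acid receptor genes were all detected, and they act as ligand-dependent activators in a dimer with a retinoid X receptor. Rarg, the form typical of surface epithelia, read 606.3 and 623.5 as deposited and 8.95 and 9.16 after normalization, a ratio of 0.21, and its second probe lay at 0.13. The brightest probe of Rarb read 373.7 and 379.0, or 8.11 and 8.27 after normalization, a ratio of 0.16. A second Rarb probe read 301.9 and 283.7, with a ratio of -0.01. Neither Rarg nor Rarb differed beyond the spread between probes. Rara was detected on WT only, at 127.3 against 119.2 on KO, with a measured ratio of -0.41 and a bound of 1.18-fold lower.

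Rarb is itself a classic target of retinoic acid, through a response element in its promoter made of a pair of hexamers of the same orientation 5 bases apart, the spacing preferred by a retinoic acid receptor and a retinoid X receptor together. The hexamers searched were the consensus AGGTCA together with its variants, namely the form AGTTCA, the form GGGTCA and the form GGTTCA, on both strands of the 250 bases before each RefSeq start site (GRCm38.p6), in every pairing at a spacing of 5. The table held promoters for 44 of the 50 members and for 13 genes of the retinoid lists. Spacings of 0 to 4 bases were searched as well, and no member or retinoid list gene had such a repeat. The repeat spaced by 5 was found in 1 member, Rarb. Among the genes of retinoid supply, breakdown and response it was found besides in Cyp26a1, the enzyme that degrades retinoic acid. Only 0.088% of all 32851 promoter windows held it. Both genes were listed as retinoic acid targets beforehand, and Rarb is known for such an element, so these matches were not read against that share. Both stretches are shown because these 2 genes of 1 pathway gave different ratios on the arrays. They are the 100 bases before the start site on the strand of the gene, with the hexamers of the repeat in capitals. The Rarb stretch is chr14:16575477-16575576 on the minus strand and its repeat lies 53 to 37 bases before the start. The Cyp26a1 stretch is chr19:37697708-37697807 on the plus strand, and its repeat lies 32 to 16 bases before the start and reads on the opposite strand, so the capitals are the reverse complement of the hexamers.
Rarb: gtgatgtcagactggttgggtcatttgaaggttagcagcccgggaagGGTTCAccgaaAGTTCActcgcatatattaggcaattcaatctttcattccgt
Cyp26a1: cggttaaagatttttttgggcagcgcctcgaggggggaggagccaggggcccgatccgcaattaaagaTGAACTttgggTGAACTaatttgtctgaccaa

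The match describes the letters of these windows and does not show binding in this tissue. Cyp26a1 read 233.7 on WT and 171.2 on KO as deposited, and 7.16 and 6.44 after normalization, a ratio of -0.72 or 1.65-fold lower, while Rarb lay at 0.16. In all 28 genes had the repeat in a window, and 6 of the 8 on the array were detected, 3 above 0 and 3 below, with a median of 0.05. Besides Rarb and Cyp26a1 these were Blvrb at 0.17, Prokr2 at -0.05, Ppbp, a platelet chemokine gene detected on KO only, with a bound of 0.49, and Tnfsf13b, detected on WT only, with a bound of -0.15. These genes were chosen after the values were seen.

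Genes around the retinoic acid receptors were mostly lower on the KO array. In the list of retinoic acid targets, 5 of 6 detected genes were below 0, with a median of -0.46, and 3 of the 6 were 1.5-fold or more lower, against 2.24% of all detected genes. Besides Cyp26a1 these were Stra6, the cell surface receptor that takes up retinol, which was 1.60-fold lower (149.7 and 126.7 as deposited), and Tgm2, tissue transglutaminase, which was 1.52-fold lower (734.6 and 468.6). Crabp2, which carries retinoic acid to its receptor, lay at -0.32. Rarb was the member of the list above 0. In the list of retinoid supply and breakdown, which shares Cyp26a1, Stra6 and Crabp2 with the first, 8 of 10 detected genes were below 0, with a median of -0.23, and 3 were 1.5-fold or more lower. Aldh1a2, the enzyme that makes retinoic acid in much of the mesenchyme, was 1.61-fold lower by its brightest probe (206.9 and 158.4) and had a ratio of -0.20 by another. The retinal reductase gene Rdh11 was 1.45-fold lower (314.4 and 231.6). Over the 12 detected genes of both lists without Rarb the median was -0.29 and 10 were below 0. No test of these lists is possible with 1 sample a group. The lists were chosen with earlier results of these data known, so their counts were not read as a difference from the background. Cyp26a1, Stra6 and Tgm2 had ratios of -0.41, -0.25 and -0.51 in the authors' normalized values, which keep the background. None of the 3 reached 1.5-fold there.

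The retinoid X receptors are the common partners of the vitamin D, thyroid hormone, retinoic acid, PPAR and LXR receptors. The brightest Rxrb probe read 1070.1 and 961.2 as deposited and 9.86 on both arrays after normalization, a ratio of -0.00, with another probe at 0.15. Rxra was dim, at 124.9 and 142.1, or 5.31 and 5.80 after normalization, which is a ratio of 0.49 or 1.41-fold higher. Its WT value lay just above the lowest detected value there, 5.26, and the ratio was 0.17 in the authors' normalized values. Rxrg, the form of muscle and nervous tissue, was detected on WT only, at 125.5 against 121.2, with a bound of 1.13-fold lower. The 3 genes therefore had no common direction.

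Of the sensors of fatty acids, sterols and foreign compounds, 2 of 7 on the array were detected. Pparg, which directs fat cell differentiation and lipid storage and also acts in sebaceous epithelium, read 143.5 and 133.8 and lay at 5.84 and 5.55 after normalization, a ratio of -0.29. The other 2 Pparg probes were not detected. Nr1h3, the oxysterol receptor LXRα, read 176.8 and 186.0 and lay at 6.47 and 6.69, a ratio of 0.22. Both ratios were well inside the central 95% of genes of their brightness. Ppara, Ppard, the bile acid receptor gene Nr1h4 and the xenobiotic receptor genes Nr1i2 and Nr1i3 were not detected.

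Of the PPAR target genes, Lpl, which releases fatty acids from circulating triglyceride, was 1.66-fold lower (1110.6 and 633.3 as deposited) and Angptl4, its secreted inhibitor, 1.64-fold lower (510.1 and 322.3). The lipid droplet coat gene Plin2 lay at -0.46. The mitochondrial enzyme genes of the list, Pdk4, Acadl and Acadm, lay at 0.13, 0.04 and 0.02 by their brightest probes, the last 2 named after their values were seen. A second Acadl probe, detected on WT only, read 138.6 and 119.7 with a measured ratio of -0.71, and a second Acadm probe lay at -0.04. Of the 6 detected of 12 genes, 2 were 1.5-fold or more lower, against 2.24% of all detected genes. This list too was chosen with earlier results of these data known. The median over the 6 genes was -0.22. The direction of this median was not stable, since it was 0.02 at a detection p-value under 0.05 and -0.40 with the mean over probes. LXR targets had a median of 0.09 over 7 genes and none reached 1.5-fold. Among these the phospholipid transfer gene Pltp lay at -0.33 (0.08 by another probe), Apoe at -0.23 and the desaturase gene Scd1 at 0.19, and the cholesterol exporter gene Abcg1 was detected on KO only, at 5.26 and thus without a bound above the WT detection limit.

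No steroid hormone receptor was detected. The glucocorticoid receptor gene Nr3c1 read 98.4 on WT and 102.6 on KO by its 1 probe, Pgr 98.6 and 98.7, and the probes of the estrogen receptor genes Esr1 and Esr2 lay between 91.4 and 105.7. Over all 25 undetected members, the 34 probes read 91.0 to 120.2 on WT and 94.4 to 117.5 on KO, where the lowest detected probe of the array read 123.5 and 123.1. A probe at this level does not show that the gene is off. Hnf4a and Nr2e1 were the members that passed at a detection p-value under 0.05.

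Glucocorticoid target genes were detected although the receptor was not, 11 of 12 on the array. Of the 11 detected, 8 were below 0, with a median of -0.35. In this list, chosen with earlier results of these data known, 2 genes were 1.5-fold or more lower, against 2.24% of all detected genes. The phosphatase gene Dusp1 was 2.25-fold lower (1172.2 and 515.3 as deposited) and the receptor tyrosine kinase inhibitor gene Errfi1 1.63-fold lower. The metallothionein gene Mt2 was detected on WT only, with a bound of 1.46-fold lower, and Sgk1, a kinase that acts on sodium channels, lay at -0.38. Of the 3 genes above 0, Cdkn1a lay at 0.32, with other probes at 0.54 and at 0.60, the last past 1.5-fold higher. Cdkn1a was named after its values were seen. Without Dusp1, Per1 and Tsc22d3, which other lists also hold, the median of the list was -0.18, an alternative added after the values were seen. It did not drop every shared gene. Fkbp5 at 0.14 and Klf9 at -0.00, also held by other lists and named after their values were seen, were kept in. The chaperones that keep steroid receptors ready for ligand had a median of 0.11 over 6 genes, with 5 above 0 and none past 1.5-fold. The Hsp70-Hsp90 adaptor gene Stip1 was widest at 0.36, followed by Fkbp5 at 0.14, Ptges3 at -0.13 and Bag1 at 0.11.

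Among receptors without a known physiological hormone, the estrogen-related receptor gene Esrra, a regulator of mitochondrial genes with PGC-1 coactivators, read 323.6 and 340.6, or 7.82 and 8.05 after normalization, a ratio of 0.23. Esrrb, known from pluripotent stem cells, read 147.3 and 148.3 and lay at 0.04. Esrrg was not detected. In the NR2F group, Nr2f6 read 854.5 and 723.6 with a ratio of -0.09, Nr2f2 133.3 and 136.5 with a ratio of 0.06, and Nr2f1 136.6 and 128.2 with a ratio of -0.31. Nr2f1 and Nr2f2, regulators of mesenchymal and vascular development, were both in the dimmest part of the array. Hnf4a, Hnf4g, Nr2c1, Nr2c2 and Nr2e1 were not detected.

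Nr6a1, the germ cell nuclear factor, which represses pluripotency genes during differentiation, had the highest ratio of the set. It read 164.0 on WT and 199.3 on KO as deposited, and 6.26 and 6.86 after normalization, a ratio of 0.61. In all 220 of the 8378 genes had a ratio this high or higher, and it lay within the central 95% of genes in the dimmest part, whose upper end was 0.75. The WT and KO values lay on either side of 6.75, the highest mean of that part. Against the range of the middle part, whose upper end was 0.54, the ratio was outside. The gene had 1 probe, so no second value exists. Its ratio was 0.45 with an offset of 50 and 0.32 in the authors' normalized values. Nr5a1, Nr5a2, Nr0b1 and Nr0b2 were not detected.

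The NR4A receptors are immediate-early genes, induced within minutes by growth factors or stress. Nr4a2 read 130.9 and 140.5, or 5.51 and 5.76 after normalization, a ratio of 0.25, while Nr4a1 and Nr4a3 were not detected. Of 14 other detected immediate-early genes 9 lay below 0, and their median was -0.38. In this list, chosen with earlier results of these data known, 5 genes were 1.5-fold or more lower on the KO array, against 2.24% of all detected genes. The widest ratios were those of Fos at -2.11, Egr1 at -1.43, Ccn1 at -1.41 and Dusp1 at -1.17. Nr4a2 thus lay on the other side of 0 from most of its class, at a distance about equal to the SD between probes.

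**Figure D3:**
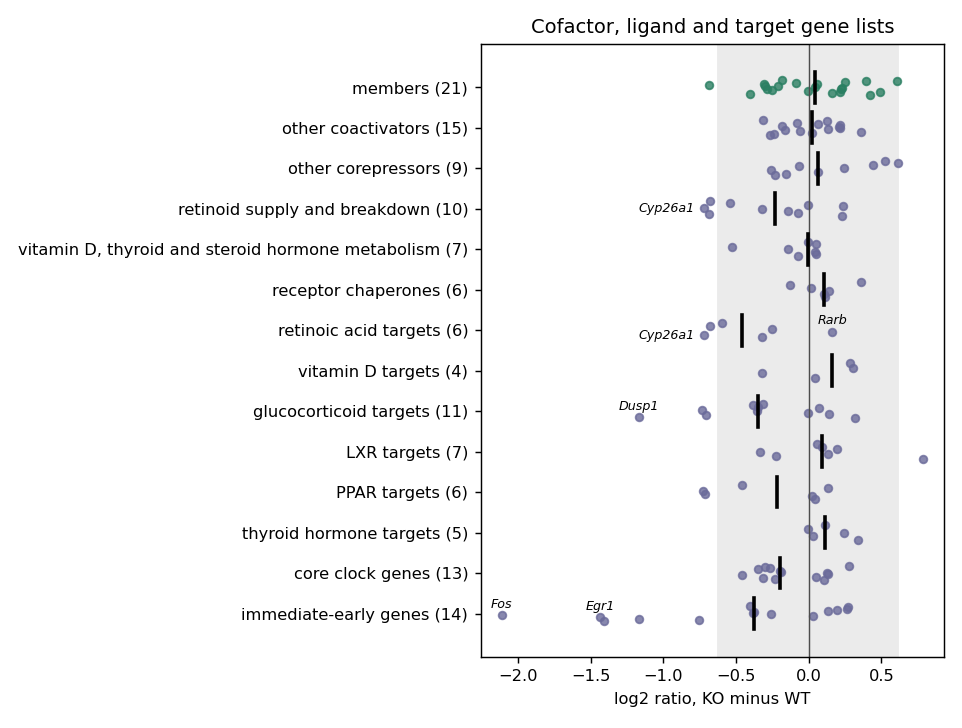
Log2 ratio, KO minus WT (x axis), of each detected gene (points) of the receptor set and of 13 lists of cofactors, ligand metabolism and targets, with the number of detected genes in parentheses, the list median as a black bar and the central 95% of all genes in grey. The receptor set centres on 0.04, while the medians of the retinoic acid targets (-0.46), immediate-early genes (-0.38) and glucocorticoid targets (-0.35) lie furthest below 0.

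Of the 4 clock receptor genes 3 were detected, with ratios of -0.69 for Rora, -0.30 for Nr1d2 and -0.21 for Nr1d1. Rora was the 1 gene past 1.5-fold, where 2.24% of all detected genes were 1.5-fold or more lower. Rora, an activator of Bmal1 (Arntl) transcription that also acts in epidermal differentiation, read 242.3 and 177.4, or 7.24 and 6.55 after normalization, a ratio of -0.69. A ratio this low or lower was seen in 154 genes, and it lay outside the central 95% of genes in the middle part by brightness, -0.57 to 0.54. The WT and KO values lay on either side of 6.75, the highest mean of the dimmest part. Against the range of that part, -0.77 to 0.75, the ratio was inside. The other Rora probe was not detected. Nr1d1, which encodes the repressor REV-ERBα at the same DNA element, read 283.7 and 245.1, a ratio of -0.21 that was smaller than the SD per probe, and its second probe lay at 0.06. Nr1d2, which encodes REV-ERBβ, read 138.6 and 129.8, with a ratio of -0.30, and Rorb was not detected.

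Among core clock genes 8 of 13 detected lay below 0, the median was -0.20, and none reached 1.5-fold. The repressor gene Cry2 was detected on WT only and had a measured ratio of -0.46, followed by Per1 at -0.35, Ciart at -0.31 and Per3 at -0.30. A second probe of Per1 lay at 0.08 and one of Ciart at -0.15. The clock output gene Tef had the highest ratio of the list, 0.28, Per2 lay at -0.27 (-0.51 and -0.21 by other probes) and Dbp, an output gene of high amplitude, at -0.19, while Clock lay at 0.05 (-0.21 by another probe) and Arntl, detected on KO only, at 0.11, and these 5 were named after their values were seen. Expression of these genes varies over the day, and the sources used here do not give the hour of dissection, so its part in the Rora, Nr1d1 and Nr1d2 values was not tested.

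Of the p160 coactivators, Ncoa1 (SRC-1) was higher on the KO array and Ncoa2 was at the limit of detection. Ncoa1 read 501.8 and 577.8, or 8.62 and 9.02 after normalization, a ratio of 0.39 or 1.31-fold, at the upper end of the central 95% of bright genes, 0.39. Its 1 probe gave 0.33 in the authors' normalized values. Ncoa2 read 124.5 and 122.1 and was detected on WT only, with a bound of 1.11-fold lower, less than the SD per probe. Ncoa3 was not detected.

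Other coactivators of nuclear receptors showed no common direction, since 8 of the 15 detected lay above 0, the median was 0.02 and none passed 1.5-fold by its brightest probe. The RNA helicase gene Ddx5 had a ratio of 0.36, the bromodomain gene Brd8 -0.27 and the arginine methyltransferase gene Carm1 -0.24, and Tsc22d3, which the list held although it is better known as a glucocorticoid target, lay at -0.31 and by a second probe, which read 321.9 and 206.6, at -0.86. The acetyltransferase gene Ep300 lay at -0.06 and the PGC-1α gene Ppargc1a, a partner of Esrra, at 0.06, both named after their values were seen. The median of 9 detected corepressor genes was 0.06, and 0.00 with Sin3b, detected on KO only, at its bound. The deacetylase gene Sirt1 was 1.53-fold higher, the 1 gene of the list past 1.5-fold, where 1.78% of all detected genes were 1.5-fold or more higher. Tbl1x, a subunit of the NCOR complex, lay at 0.53 and Hdac3, its deacetylase, at -0.26. The measured ratio of Sin3b was 0.44.

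Without background correction 4 members moved by more than the SD between probes, namely Rara, Rxra and Nr6a1 of the dimmest part and Rora of the middle one. In the authors' normalized values, which likewise were not corrected for background, the ratios became -0.40 for Rora, 0.17 for Rxra and -0.12 for Rara, while the brighter Vdr and Ncoa1 moved little, to 0.35 and 0.33. No member reached 1.5-fold in those values. All alternatives reprocessed the same arrays, and for a gene with 1 detected probe the mean over probes could not change the ratio. Among the 21 genes 19 kept the sign of their ratio in every alternative in which they were detected. The exceptions were Rxrb, with a ratio of -0.00, which was 0.07 with the mean over its 2 probes, and Esrrb, with 0.04, which was -0.04 with median scaling.

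**Figure D4:**
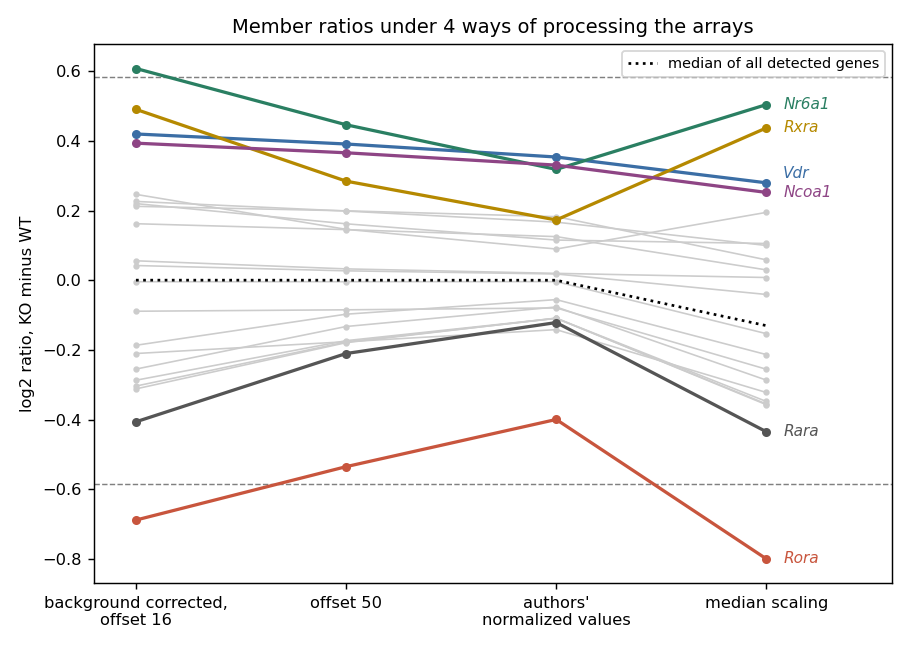
Log2 ratio, KO minus WT (y axis), of the brightest probe of the 21 detected genes under 4 ways of processing the arrays (x axis), with 6 genes coloured, the others in grey, the median of all detected genes dotted and 1.5-fold dashed. The ratios of Rora, Nr6a1, Rxra and Rara shrink with a larger offset and without background correction, and median scaling shifts all ratios with the median of all genes to -0.13.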

How the data were processed

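Total RNA from the CL of WT and KO mice was hybridized to Illumina MouseRef-8 v2 arrays, and the values were exported with GenomeStudio per the labels. The authors deposited a linear intensity per probe that was not normalized, and with each intensity a detection p-value, which places a probe against negative controls. Those p-value columns name no sample. Each was taken to belong to the intensity column before it, with which it ranked most closely (Spearman's rho across probes -0.976 on both arrays, against -0.883 across). A second deposited set of intensity values had been normalized by the authors. Quantile normalization of the first set gave the same values to within 2.1 units. The design text gives n = 3 per genotype, and the sources used here do not say whether a column is 1 array or a mean.

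Intensities were corrected and normalized with neqc of limma 3.58.1 in R 4.3.3 (normexp by detection p, offset 16, quantiles, log2). Background correction and offset act most on dim probes. For a gene detected on 1 array the bound compares its bright value with the other array's lowest detected value, or with its own there if that is higher. The platform annotation gave 1 symbol for 23978 probes and none for 1719, and 3 list entries were matched through older symbols with a RefSeq table. The number of arrays limits the precision. Alternatives were the authors' values, no background correction, an offset of 50, median scaling, other detection rules, the mean over probes and a 2-fold limit. Receptors, cofactors, ligand enzymes and targets were grouped by role. Every detected member is described, and of each list up to 4 detected genes with the widest ratios, while others are said to be named after their values were seen. The genes of the set and the lists were chosen with earlier results of these data known. The steps were tested on simulated data.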

Additional observations from a re-analysis of the deposited data

How the results depend on the processing

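The count of members at 1.5-fold or more, 2 in the values reported, was 0 in the authors' normalized values, 0 without background correction, 0 with an offset of 50, 1 (Rora) with median scaling and 0 at a 2-fold limit. Over all genes the count of 337 became 58, 58, 124 and 33 in the first 3 of these settings and at 2-fold. An offset or an uncorrected background adds a constant to both arrays and so draws dim ratios towards 0. The median of the retinoid X receptor genes was 0.24 and that of the p160 coactivators 0.39 when detection on both arrays was required, because Rxrg and Ncoa2 then dropped out. The median of the NR5, NR6 and NR0 group, which is Nr6a1 alone, was 0.32 without background correction and 0.32 with the normalization of the authors. The other medians moved by less than the SD between probes in every alternative run, but some near 0 changed sign. With median scaling this held for the members (-0.04), the other coactivators (-0.05), the corepressors (-0.06), the chaperones (-0.04) and the LXR targets (-0.04), and at a detection p under 0.05 for the PPAR targets (0.02). Signs also turned for the coactivators, hormone metabolism and retinoid X receptors with the mean over probes (-0.01, 0.04 and 0.07), the corepressors with detection on both arrays (-0.00) and the lipid sensors without background correction and in the authors' values (0.00 in both). In the settings run, neither Rora nor Nr6a1 changed sign, but the other detection rules and the mean over probes left their values unchanged. Signal over background limits the 12 dim members most. No paired analysis was possible because each genotype had 1 sample.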
